A study of Bubalus bubalis with 12 samples.

Results

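The genes described here carry the interferon signal and respond to it: the signal transducers STAT2 and IRF9, the transcription factors IRF7 and IRF1, and the induced genes MX1, ISG15, IFI44, IFI44L and TRIM14. They were chosen by name, as rows of the expression table whose gene name is 1 of these 9 symbols. All 9 were found, each in 1 row, among 34037 genes. The tissue is the ruminal wall of Italian Mediterranean dairy buffaloes (Bubalus bubalis), adult multiparous animals in milk that were already due for slaughter. The control group (6 animals) received a total mixed ration (TMR), and the treated group (6 animals) received TMR with 30% green feed, which was freshly cut ryegrass. Per the study's methods, the rations were matched in nitrogen and energy, and the treated ration also held less corn silage and alfalfa hay and no soybean meal, so that the part of the ryegrass and that of the other feeds cannot be told apart. Each animal gave 1 library of total RNA from a frozen piece of the ruminal wall. In such bulk tissue, fewer cells of a type and less RNA per cell cannot be told apart.

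Interferons are secreted proteins of antiviral defence, which bind receptors on the cell surface and activate the kinases of the JAK family. These kinases phosphorylate STAT2, which joins IRF9 in a complex that enters the nucleus and switches on a broad set of interferon-stimulated genes, while IRF1 serves mainly the response to interferon gamma. The lining of the rumen is a stratified squamous epithelium in permanent contact with a dense microbial community, and immune cells reside within and beneath it.

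Expression is given as FPKM, fragments relative to gene length and to the total of the animal, so that levels of different genes can be compared per length. These totals lay between 10531541 and 12948372 fragments. The reads behind each FPKM could be worked out, because the values of a gene, each multiplied by its animal's total, are whole multiples of 1 step. This gave 8992 reads over the 12 animals for STAT2, 337 for IFI44L, 71 for IFI44 and 49 for ISG15. A value resting on 3 reads or fewer was taken as being at the floor of detection. All 9 genes passed the filter for the test, a mean of at least 0.1 FPKM over the 12 animals, as did 17177 genes in all.

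For the labelled tissue, markers of the epithelium were abundant and those of the muscle layer were not. The 5 measured epithelial markers (KRT5, TP63, DSG3, PKP1 and CDH1) summed to between 1527.5 and 3373.6 FPKM per animal, led by the basal keratin KRT5 with a mean of 1493 FPKM. PTPRC, which all leukocytes carry, was between 5.04 and 13.4 FPKM. Smooth muscle markers were low, with sums of 2.76 to 19.4 FPKM.

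STAT2, the transducer that is specific to the type I and type III interferon pathways, had the highest level of the 9 genes, with a mean of 16.3 FPKM over the 12 animals. IRF7, which amplifies the production of type I interferon, followed with 12.8 FPKM. These means placed STAT2 at the percentile 78.2 and IRF7 at the percentile 73.1 of mean FPKM among the genes tested. STAT2 was above IRF7 in 10 of 12 animals, with ratios of their FPKM from 0.958 to 2.04, so that this order did not hold in each animal. IRF7 in turn was above TRIM14 in all 12 animals, by a ratio of FPKM of at least 1.81.

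The remaining genes lay lower. TRIM14, a tripartite motif protein that acts as an adaptor at the mitochondrial antiviral protein MAVS, had a mean of 4.53 FPKM, the percentile 51.6. IRF1 had a mean of 2.80 FPKM, IRF9 of 1.96 FPKM and MX1 of 1.66 FPKM. TRIM14 was above IRF1 in 10 of 12 animals, IRF1 above IRF9 in 8, and IRF9 above MX1 in 8, so that the order of these neighbours was not the same in each animal. IFI44L averaged 0.907 FPKM, and MX1 was above it in 10 of 12 animals. The lowest levels were those of ISG15, a ubiquitin-like modifier, with 0.604 FPKM, and of IFI44, with 0.186 FPKM, the percentile 7.17 among the genes tested. IFI44L was above ISG15 in 9 of 12 animals. ISG15 was above IFI44 in 10 of 12 animals, although a gene of so few reads is ordered with little precision.

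Variation between animals of the same diet also differed among the 9 genes. On the scale of log2(FPKM + 0.01), the standard deviation within the groups was 0.23 for STAT2, 0.31 for IRF7 and 0.32 for TRIM14, against a median of 0.47 over all genes tested. It was 0.43 for IRF9, 0.62 for IRF1 and 0.63 for IFI44L. For MX1 it was 0.94, for IFI44 1.03 and for ISG15 2.11, so that 5 of the 9 genes spread more widely than the median gene. In ISG15 and IFI44, counting error adds to this spread, since 6 animals had 3 reads or fewer for ISG15 and 3 animals had so few for IFI44. The variance of the reads was 3.83 times what counting alone gives for ISG15 and 2.55 times for IFI44, compared with 22.2 times for MX1 and 19.9 times for STAT2.

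Between the diets, IFI44L and TRIM14 were higher in treated animals by a nominal p-value, and the other 7 genes did not pass this test. With limma on log2(FPKM + 0.01), 2 of the 9 genes had a nominal p-value below 0.05, both higher in the treated group, while this was so for 1.09% of all genes tested in that direction, 0.926% in the other and 2.01% in either. None of the 9 genes, and 0% of all genes tested, had an adjusted p-value below 0.05. The adjusted p-value of each of the 9 genes was 0.9997, the smallest value reached by any gene. Of the 17177 genes, 346 had a nominal p-value below 0.05, and 329 had one with voom on the reads, in which no adjusted p-value was below 0.05 either. In none of the 9 genes did the groups separate fully, compared with 0.0640% of all genes tested. That IFI44L and TRIM14 were higher in these animals was known when the genes were chosen, so that their calls are no independent support. The log2 difference, treated minus control, was above 0 for 8 of the 9 genes, with a median of 0.24. Over all genes tested, the median was 0.0012 and 50.2% were above 0. The 8 genes include IFI44L and TRIM14, so that this count and the median of the 9 are no independent support either. For STAT2 and IRF1, also among the 8, the difference was only 0.01 and 0.03. This median of the 9 genes depended on the scale, being 0.11 with a pseudocount of 0.1 or with voom, 0.02 with a pseudocount of 1 and 0.09 by the ratio of the group means, where 6 of the 9 genes were above 0. With each animal left out in turn it was between 0.01 and 0.29, with 5 to 9 genes above 0.

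**Figure D1:**
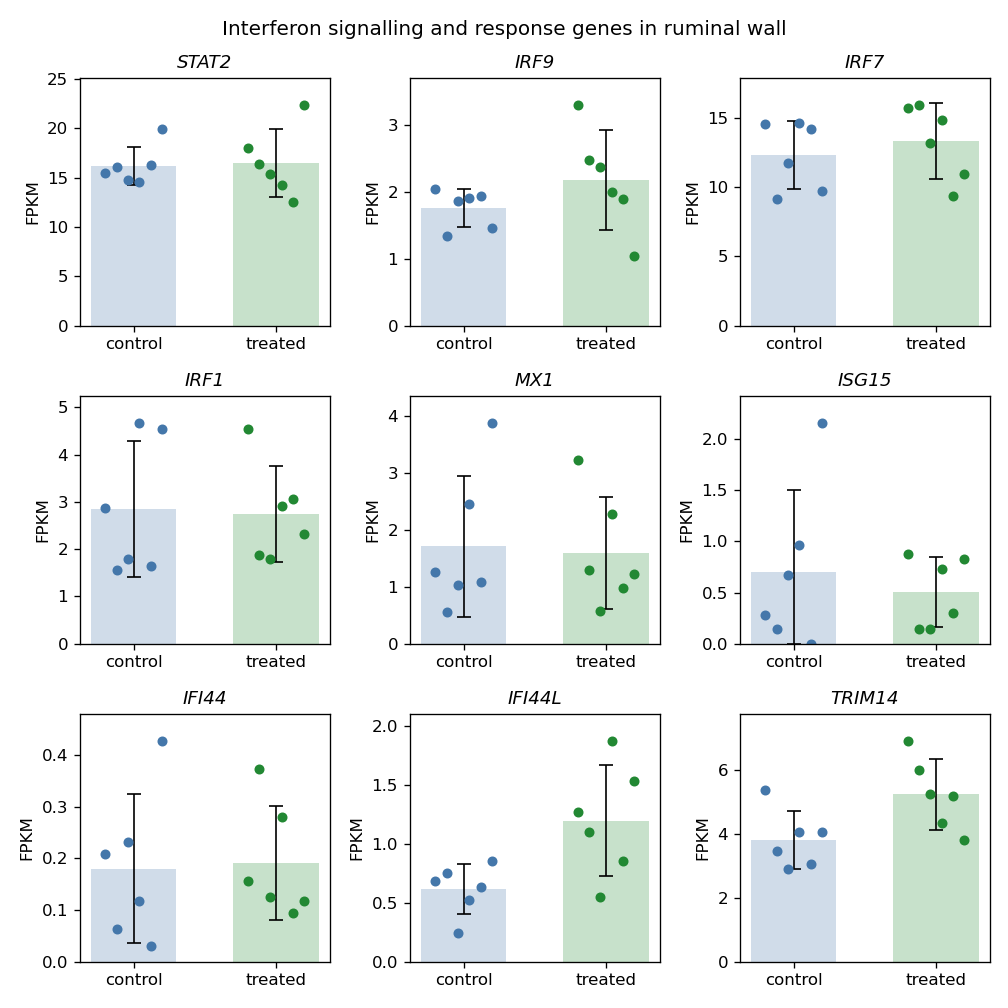
FPKM of the 9 genes in each animal (points) of the control group and the treated group, with the group mean (bar) and SD (error bar, cut off at 0; n = 6 per group); each vertical axis starts at 0 and has its own scale. For IFI44L, 5 of 6 treated animals lay above the highest control animal, and in the other genes the groups overlapped more widely.

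STAT2 (gene 102414314) ranged in the control group from 14.6 to 19.9 FPKM with a median of 15.8, and in the treated group from 12.6 to 22.4 FPKM with a median of 15.9. Treated replicate 6 was the highest and treated replicate 5 the lowest of all animals, so that the control values fell within the treated range. The log2 difference was 0.01 with a 95% confidence interval from -0.29 to 0.31, which is a fold of 0.818 to 1.24 (exact permutation p = 0.959, n = 6 per group). This was the narrowest interval of the 9 genes.

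IRF9 (gene 102395411), the DNA-binding partner of STAT2, was between 1.34 and 2.03 FPKM in controls, with a median of 1.88. In treated animals it was between 1.03 and 3.29 FPKM, with a median of 2.18. Treated replicates 1, 2 and 3 lay above every control and treated replicate 6 below every control, so that the treated group was spread to both sides. Its log2 difference was 0.24 (standard error 0.26; exact permutation p = 0.39, n = 6 per group). Without treated replicate 6, the log2 difference was 0.44 with a nominal limma p-value of 0.0464. In that animal, IRF9 was at its lowest while STAT2 was at its highest.

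IRF7 (gene 102399283) had FPKM from 9.17 to 14.6 in controls, with a median of 13.0, and from 9.35 to 16.0 in treated animals, with a median of 14.0. Low values occurred in both groups. Control replicates 2 and 6 and treated replicates 5 and 6 were below 11 FPKM, and the other 8 animals were above it. The log2 difference of 0.11 (95% confidence interval -0.26 to 0.48) was smaller than the spread between animals (exact permutation p = 0.524, n = 6 per group).

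IRF1 (gene 102398631), which interferon gamma induces within hours and which drives genes of antigen presentation, was between 1.56 and 4.67 FPKM in controls, with a median of 2.33. Treated animals ranged from 1.80 to 4.54 FPKM, with a median of 2.62. Control replicates 4 and 6 and treated replicate 1 stood above 4.5 FPKM, and the groups overlapped over almost all of their range. On the log2 scale the difference was 0.03 (95% confidence interval -0.69 to 0.75; exact permutation p = 0.918, n = 6 per group), and the log2 ratio of the group means had the opposite sign, at -0.05.

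MX1 (gene 102399772) encodes a dynamin-like GTPase that traps viral ribonucleoproteins. It was between 0.547 and 3.89 FPKM in controls, with a median of 1.18, and between 0.573 and 3.24 FPKM in treated animals, with a median of 1.26. Control replicate 6 and treated replicate 1 were the highest, while control replicate 2 and treated replicate 3 were the lowest, so that both groups covered the same range. The log2 difference was -0.03 (95% confidence interval -1.09 to 1.03; exact permutation p = 0.935, n = 6 per group), and the difference of the group medians was 0.09.

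ISG15 (gene 102401758), which is attached to other proteins after interferon stimulation, had from 0 to 13 reads per animal. This gave 0 to 2.16 FPKM in controls, with a median of 0.477, and 0.145 to 0.878 FPKM in treated animals, with a median of 0.510. Control replicate 5 had no read and control replicate 6 had the most, so that the treated values fell within the range of the controls. With 3 reads corresponding to 0.436 FPKM in the median animal, 3 animals of each group were at the floor. For ISG15 the log2 difference was 0.44 (95% confidence interval -1.90 to 2.77; exact permutation p = 0.768, n = 6 per group). It rested on the animal without reads, since it was -0.54 without control replicate 5 and -0.10 with a pseudocount of 1.

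IFI44 (gene 102389743) had from 1 to 12 reads per animal. It was at 0.0306 to 0.427 FPKM in controls, with a median of 0.164, and at 0.0949 to 0.374 FPKM in treated animals, with a median of 0.141. Control replicates 6 and 5 were the highest and the lowest of all animals, so that the treated group lay within the control range. For IFI44 the log2 difference was 0.32 (95% confidence interval -1.03 to 1.67; exact permutation p = 0.610, n = 6 per group). That of the group medians was -0.16, so that no direction can be given.

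IFI44L (gene 102389433), an interferon-induced protein related to IFI44 with a role in antiviral defence, was between 0.241 and 0.853 FPKM in controls, with a median of 0.660. Treated animals were between 0.552 and 1.88 FPKM, with a median of 1.19. Treated replicate 3 lay within the control range and the other 5 treated animals above it, although treated replicate 5, at 0.856 FPKM, hardly exceeded control replicate 6. The log2 difference was 0.95 (standard error 0.37, 95% confidence interval 0.15 to 1.74; exact permutation p = 0.0238, n = 6 per group), a 1.93-fold difference. Its nominal limma p-value was 0.0229. The reads behind these values were 8 to 23 per control animal and 17 to 58 per treated animal. Without control replicate 3, the lowest, the log2 difference was 0.70 with a nominal p-value of 0.0509, and without treated replicate 4, the highest, it was 0.80 with a nominal p-value of 0.0573. IFI44 and IFI44L follow each other in the gene list of the NDDB_SH_1 buffalo assembly with no gene listed between them, and their values over the animals had an r of 0.0732 after centring within diet (permutation p = 0.818, adjusted p = 0.842 over 36 pairs; rho = 0.126, permutation p = 0.699, adjusted p = 0.966; r = -0.0358 without 2 animals).

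TRIM14 (gene 102402387) was between 2.91 and 5.37 FPKM in controls, with a median of 3.76. In treated animals it was between 3.81 and 6.92 FPKM, with a median of 5.21. All 6 treated animals were above the control median and treated replicates 1 and 2 above every control, while control replicate 1 lay among the higher treated animals. The log2 difference was 0.46 (standard error 0.19, 95% confidence interval 0.05 to 0.87; exact permutation p = 0.0368, n = 6 per group), a 1.38-fold difference. Its nominal limma p-value was 0.0295, resting on 159 to 352 reads per animal. This p-value was above the threshold when 1 of 5 animals was left out: 0.0535 without control replicate 2, 0.0679 without control replicate 3, 0.0649 without control replicate 5, 0.0701 without treated replicate 1 and 0.0615 without treated replicate 2.

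**Figure D2:**
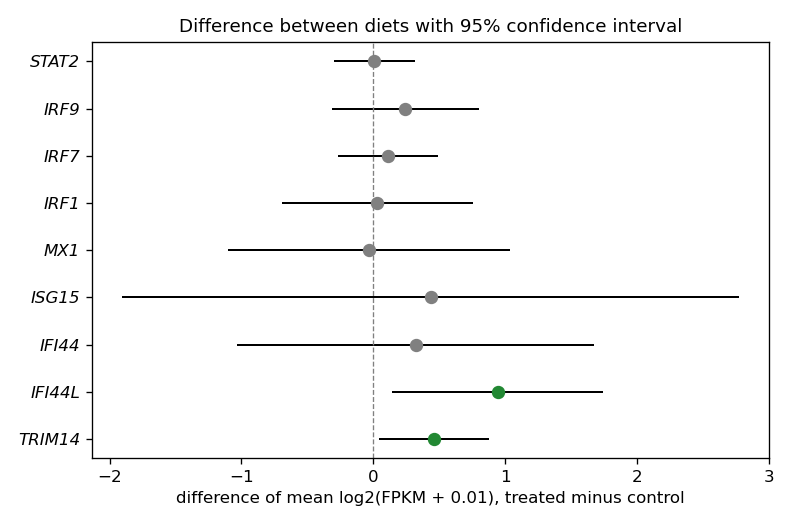
Difference of the mean log2(FPKM + 0.01) between the diets, treated minus control, for the 9 genes (points) with the 95% confidence interval from limma (lines); green marks a nominal p-value below 0.05. The intervals of IFI44L (0.15 to 1.74) and TRIM14 (0.05 to 0.87) lie above 0, and those of the other 7 genes include 0.

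No animal had the highest FPKM of more than 3 of the 9 genes. Treated replicate 1 was above the median of the 12 animals in each of the 9 genes. Control replicate 6 had the highest FPKM of MX1, ISG15 and IFI44, and treated replicate 1 that of IRF9 and TRIM14. Control replicate 2 had the lowest FPKM of IRF7, IRF1 and MX1, control replicate 3 that of IFI44L and TRIM14, and control replicate 5 that of ISG15 and IFI44. Each animal's mean over the 9 genes, after standardizing each gene over the 12 animals, ran from -0.90 in control replicate 2 to 1.07 in treated replicate 1.

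Whether the genes varied together apart from the diet was examined over the 12 animals, with log2(FPKM + 0.01) centred within each diet group. Of the 36 pairs of genes, 30 had a positive Pearson r, with a median of 0.219. In 13 of the 36 pairs, r had opposite signs within the control animals and within the treated animals, as for IFI44L and TRIM14 (0.512 and -0.346). IRF1 and MX1 were the 1 pair with an adjusted p-value below 0.05 over the 36 pairs (Pearson r = 0.856, permutation p = 0.00051, adjusted p = 0.0184). Spearman's rho of this pair was 0.769 (permutation p = 0.00461, adjusted p = 0.083), and r was 0.787 without the 2 animals farthest from the median of IRF1. It was 0.911 within the 6 control animals and 0.784 within the 6 treated animals.

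**Figure D3:**
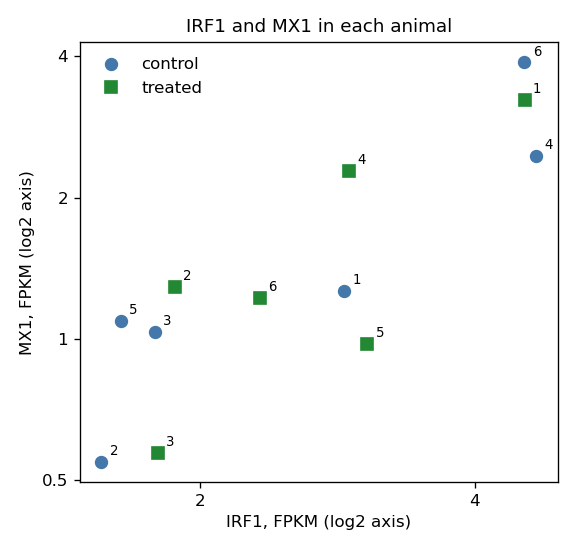
FPKM of MX1 against FPKM of IRF1 in each animal, both on log2 axes, for the control group (circles) and the treated group (squares), with the replicate number beside each point. Control replicates 4 and 6 and treated replicate 1 are high in both genes, and control replicate 2 and treated replicate 3 are low in both.

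IRF9 and IRF7 were the pair with the highest rho (0.811, permutation p = 0.00213, adjusted p = 0.0767), with a Pearson r of 0.693 (permutation p = 0.00652, adjusted p = 0.0852) and of 0.830 without the 2 animals farthest from the median of IRF9. For IRF1 and ISG15, r was 0.697 (permutation p = 0.0071, adjusted p = 0.0852) and rho 0.713 (permutation p = 0.0115, adjusted p = 0.138), and r was 0.550 without 2 animals. STAT2 and IRF9, partners in the same complex, had the lowest r, at -0.432 (permutation p = 0.158, adjusted p = 0.516), with a rho of -0.028 (permutation p = 0.939, adjusted p = 0.966). This value rested on 2 animals, without which r was -0.0351. The 2 genes that were nominally higher in treated animals, IFI44L and TRIM14, had an r of 0.1 (permutation p = 0.756, adjusted p = 0.830) and a rho of -0.035 (permutation p = 0.920, adjusted p = 0.966), and r was -0.304 without 2 animals.

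The genes most like the 9 as a group were taken as the 10 tested genes with the highest Pearson r, over the 12 animals and centred within diet, to the mean of the standardized log2 values of the 9 genes. They were PDE4DIP (r = 0.928, rho = 0.832), HDAC2 (r = 0.926, rho = 0.895), TTL, IKZF3, VAV1, KLK9, LOC112579134, FYN, CLASP2 and ELF1, the last with r = 0.887 and rho = 0.839. Without the 2 animals farthest from the median of that mean, r of the 10 genes was between 0.776 and 0.952. As a selection from 17177 genes, these values are a description and were not tested. None of the other interferon pathway genes listed was among the 10. The nearest of these was RSAD2, the antiviral enzyme viperin, at place 20 (r = 0.859, rho = 0.818, and r = 0.796 without 2 animals), which was named after its value was seen. The median r to the 9 genes was 0.467 over 28 tested interferon-stimulated genes and 0.469 over 13 tested genes typical of interferon gamma, beside 0.0494 over all genes tested. These were the highest medians of the 11 lists: the others lay between 0.0202 for the enzymes of ISG15 conjugation and 0.393 for the receptor chains, and all 87 tested pathway genes together had 0.264.

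For the rest of the pathway, 116 genes were listed, of which 94 were matched to a row and 87 were tested. Of these, 2 were nominally higher and 2 nominally lower in treated animals, beside 1.09% and 0.926% of all genes tested, and none had an adjusted p-value below 0.05. The median log2 difference of the 87 genes was -0.01, beside 0.0012 over all genes tested. By direction alone, 39 were higher and 48 were lower.

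At the start of the pathway stand the interferons. Of 7 listed ligands, 4 were matched by name, while the other 3 and interferon genes outside the list may be present under other names. Among the 4, only the epithelial interferon IFNE passed the filter, with a mean of 0.417 FPKM (0.469 ± 0.197 for the control group, 0.364 ± 0.183 for the treated group; SD, n = 6 each). IFNG had 1 read in 1 animal, and IFNK and IFNL3 had 0 reads in all 12 animals. All 6 receptor chains were tested and none had a nominal p-value below 0.05. IFNGR2 was the most abundant, with a mean of 49.4 FPKM, before IL10RB with 27.1, IFNGR1 with 19.9 and IFNLR1 with 9.16 FPKM.

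The receptor kinases were expressed as well. JAK1 had a mean of 49.1 FPKM, JAK2 of 16.8 and TYK2 of 3.47 FPKM, and none of these 3 genes had a nominal p-value below 0.05. Of other interferon regulatory factors, IRF3 had a mean of 17.1 FPKM, IRF2 of 3.47 and IRF5 of 2.65 FPKM, and these 3 genes did not pass the nominal threshold either.

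Of 12 tested nucleic acid sensors with their adaptors and kinases, 1 was nominally higher and none lower in treated animals. Among all genes tested, 1.09% were nominally higher and 0.926% nominally lower. The sensor with this call was ZBP1 (gene 102402002), which binds Z-form nucleic acids. It was between 0.0551 and 0.321 FPKM in controls, with a median of 0.172, and between 0.272 and 0.671 FPKM in treated animals, with a median of 0.47. The highest control animal was exceeded by 5 of 6 treated animals. Its log2 difference was 1.46 (standard error 0.45; exact permutation p = 0.00433, n = 6 per group), and the limma p-value was 0.00658 before and 0.9997 after adjustment. These values rested on 1 to 6 reads per control animal and 5 to 13 per treated animal. The more abundant members of this list were the kinases IKBKE (16.1 FPKM) and TBK1 (10.8), the adaptor MAVS (5.31) and the sensor IFIH1 (4.25), whose log2 differences ran from -0.26 to 0.07.

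Among 6 tested negative regulators of the pathway, none had a nominal p-value below 0.05, and the most abundant were the phosphatases PTPN2 (11.9 FPKM), PTPN1 (7.98) and PTPN6 (7.37) and the receptor inhibitor SOCS3 (4.51). The 4 enzymes of ISG15 conjugation had means of 1.64 FPKM for UBA7, 1.17 for HERC6, 0.815 for UBE2L6 and 0.744 for HERC5, and none had a nominal p-value below 0.05. Of 5 tested TRIM proteins other than TRIM14, none did either. TRIM25, the ligase that modifies the sensor RIG-I, had a mean of 26.4 FPKM, TRIM26 of 9.14, TRIM38 of 3.34 and TRIM21 of 3.25 FPKM, and the median log2 difference of the 5 genes was 0.07.

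Of 28 other interferon-stimulated genes tested, none had a nominal p-value below 0.05, 12 were higher and 16 lower in treated animals, and the median log2 difference was -0.01. The most abundant were PNPT1 (23.2 FPKM), the double-stranded RNA kinase EIF2AK2 (14.0) and LGALS9 (13.0), with log2 differences from 0.0039 to 0.24. Of 13 tested genes typical of interferon gamma and IRF1, 2 were nominally lower and none higher in treated animals. Of all genes tested, 0.926% were nominally lower and 1.09% nominally higher. WARS (gene 102392320), a tryptophanyl-tRNA synthetase that interferon gamma induces, was between 13.9 and 17.8 FPKM in controls, with a median of 15.5, and between 10.4 and 14.8 FPKM in treated animals, with a median of 13.0. Here 5 of 6 treated animals lay below every control, and the log2 difference was -0.30 (standard error 0.12; exact permutation p = 0.0195, n = 6 per group). Its nominal limma p-value was 0.0226, and 0.0524 without control replicate 2.

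CXCL10 (gene 102415013), a chemokine that attracts activated T cells, had 2 to 16 reads in control animals and 0 to 8 in treated animals, of which 4 had none. FPKM were between 0.128 and 1.25 in controls, with a median of 0.167, and between 0 and 0.519 in treated animals, with a median of 0. The log2 difference was -2.94 (standard error 1.10; exact permutation p = 0.039, n = 6 per group), but the limma p-value went from 0.0189 to 0.0699 with a pseudocount of 0.1 and to 0.184 with a pseudocount of 1, so that this call depended on how reads of 0 were treated. TAPBP (11.1 FPKM), PSMB10 (10.7) and CD274 (9.19), abundant genes of antigen presentation, its proteasome and its checkpoint, had log2 differences from -0.10 to 0.01.

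Of the 2 IFI27-like genes, which interferon also induces, 1 was nominally higher in treated animals, beside 1.09% of all genes tested. This gene, LOC102408976, had a median of 1.07 FPKM in the control group and of 3.85 FPKM in the treated group (exact permutation p = 0.039, n = 6 per group). Its limma p-value was 0.0135 before and 0.9997 after adjustment. For LOC102407663, the medians were 6.25 and 21.8 FPKM (exact permutation p = 0.102, n = 6 per group). Its values ran from 1.61 to 8.63 FPKM in controls and from 2.77 to 53.6 FPKM in treated animals. Of the 6 treated animals, 3 lay above every control, and the limma p-value was 0.0573 before and 0.9997 after adjustment.

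Markers of other cell types were set beside these results. Of 10 marker lists, the sum of the 5 smooth muscle markers (MYH11, DES, ACTA2, CNN1 and ACTG2) was 12.8 ± 4.71 FPKM under the control diet and 7.02 ± 3.95 FPKM under the treated diet (SD, n = 6 each; exact permutation p = 0.0433, adjusted p = 0.433 over the 10 lists). In the order of the replicates, it was 19.4, 10.5, 13.5, 6.33, 10.6 and 16.8 FPKM in controls and 2.76, 3.07, 7.46, 13.4, 8.79 and 6.64 FPKM in treated animals. ACTA2 was its most abundant gene with a mean of 4.12 FPKM, and none of the 5 markers was at 0 in all animals. Of the 5 markers, 3 were nominally lower in treated animals, beside 0.926% of all genes tested. Treated replicates 1 and 2, the lowest in smooth muscle markers, were the highest in TRIM14. In contrast, control replicate 1, the highest in these markers at 19.4 FPKM, had the highest TRIM14 of the controls (5.37 FPKM). The highest IFI44L was in treated replicate 4, at 13.4 FPKM of these markers. The part of the smooth muscle content in the differences of IFI44L and TRIM14 was not tested.

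T cell markers (CD3D, CD3E, CD3G, CD2, CD4 and CD8A, all 6 measured) did not differ by more than the spread between animals, with sums of 19.6 ± 5.51 FPKM under the control diet and 18.2 ± 5.42 FPKM under the treated diet (SD, n = 6 each; exact permutation p = 0.665, adjusted p = 0.831). In the order of the replicates, they were 19.6, 12.3, 15.6, 24.1, 18.6 and 27.5 FPKM in controls and 17.7, 19.2, 8.76, 25, 17.2 and 21.2 FPKM in treated animals. CD3D was the most abundant, with a mean of 8.99 FPKM. The sums were high in control replicates 4 and 6 and in treated replicate 4, which were also among the 4 animals highest in MX1, but not in treated replicate 1, the animal with the second highest MX1, and low in control replicate 2 and treated replicate 3, the 2 animals lowest in MX1. PTPRC was likewise lowest in treated replicate 3 (5.04 FPKM) and highest in control replicate 6 (13.4 FPKM). The part of the T cell content in the variation of IRF1 and MX1 was not tested.

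The other lists did not differ between the diets either, with exact permutation p-values from 0.266 to 0.907 and adjusted p-values from 0.831 to 0.907. Macrophage markers, led by CD14 with 21.1 FPKM, summed to 32.3 ± 5.07 FPKM under the control diet and 35.6 ± 9.71 FPKM under the treated diet (SD, n = 6 each). Neutrophil markers were led by S100A8, with a mean of 4759.1 FPKM, which squamous epithelium also expresses. Fibroblast markers were led by COL3A1 (32.1 FPKM), endothelial markers by PECAM1 (7.55), plasma cell markers by JCHAIN (4.06) and dendritic cell markers by FLT3 (0.399). The B cell genes CD79B and MS4A1 and the dendritic cell genes XCR1 and CLEC9A had means below 0.1 FPKM, CD79B being at 0 in all 12 animals.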

How the data were processed

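RNA-seq libraries were made from total RNA of 12 separate animals, 1 library each, with a stranded kit. Per the study's methods and the submitters' processing notes, reads were trimmed with Trimmomatic 0.39, aligned to UOA_WB_1 with STAR 2.5.2b and counted per gene and strand with featureCounts 2.0.0. The authors deposited FPKM for 34037 genes. Of its 16 columns, 12 matched a sample label and 4 matched none and were not used. The NDDB_SH_1 gene list, which holds 28666 of the gene identifiers, served for names and neighbours only.

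From the FPKM, read numbers were worked out, whole within 0.001 in all 12 animals for each of the 22972 genes above 0. The chi-square per gene between pairs of libraries was at least 16.3, so that no library repeated another. Differences were tested with limma 3.58.1 in R 4.3.3 (lmFit, eBayes with trend) on log2(FPKM + 0.01), for genes with a mean of at least 0.1 FPKM, with Benjamini-Hochberg adjustment over 17177 genes. The log2 differences of low genes depend on the added 0.01. Single genes and marker sums had a two-sided exact permutation test over 924 assignments, whose smallest p-value is 0.00216. Correlations used 100000 permutations, two-sided (Python 3.11.15, numpy 2.4.6, scipy 1.17.1, pandas 2.3.3; figures with matplotlib 3.10.9). The fit was tested on simulated data.

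The genes and lists were chosen with earlier results of these data known. Named are the 9 genes, of the pathway lists every gene with a nominal limma p-value below 0.05 and up to 4 per list with the highest mean FPKM, the 10 genes most like the 9, and the marker with the highest mean FPKM of each list; some genes that this rule selects are not given; RSAD2 and the genes named in the sections on single settings were chosen after their values were seen. Alternatives were pseudocounts of 0.1 and 1, no filter, a mean of at least 1 FPKM, median ratio scaling, robust empirical Bayes, the replicate number as a block, each animal left out, ratios of means, differences of medians, uncentred correlations and, chosen after seeing the data, voom.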

Additional observations from a re-analysis of the deposited data

Results flagged for a closer look

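The FPKM of STAT2 in control replicate 6, 19.9, stood far from the other 5 control animals, which lay between 14.6 and 16.3 FPKM: its gap to the next animal was 0.682 of the range of the group. The same comparison was made for the highest and lowest animal in 18 groups (9 genes in 2 diets), and chance alone singles out about 1 in 20 groups. Without this animal, the log2 difference of STAT2 between the diets was 0.07.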

How the results depend on the processing

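For the 9 genes, 195 results under other settings were compared with those reported. Of these, 165 kept their direction and, where a p-value was computed, their side of the nominal threshold (the ratios of means and differences of medians have none), 8 lost or gained the nominal call and 22 reversed their sign, 17 of them on leaving out 1 animal. The other 5 reversals were IRF1 by the log2 ratio of the group means (-0.0482), MX1 by the group medians (0.0945), ISG15 with a pseudocount of 1 (-0.10) and by the ratio of means (-0.49), and IFI44 by the group medians (-0.16). The cause was not tested. No gene that reversed had a nominal call. With each animal left out in turn, the log2 difference was between -0.0839 and 0.0829 for STAT2, 0.11 and 0.44 for IRF9, 0.03 and 0.21 for IRF7, -0.13 and 0.20 for IRF1, -0.30 and 0.26 for MX1, -0.54 and 1.01 for ISG15, -0.0427 and 0.64 for IFI44, 0.70 and 1.15 for IFI44L and 0.38 and 0.57 for TRIM14. IFI44L kept its nominal call in 10 of these 12 fits and TRIM14 in 7.

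The number of the 9 genes called nominally, 2, was between 0 and 3 with 1 animal left out, being 0 without control replicate 3, and 1 among genes with a mean of at least 1 FPKM, a filter that IFI44L, IFI44 and ISG15 do not pass. That filter also left 2 of the 4 nominally called genes of the pathway lists. Over all genes, nominal calls numbered 562 without a filter and 157 with a mean of at least 1 FPKM, against 346. These fits also tested other numbers of genes, and what changed the number of calls was not tested. Leaving out 1 animal gave 318 to 500 such genes and 0 to 1 with an adjusted p-value below 0.05: LOC112578305 without control replicate 4 and LOC102397142 without treated replicate 1, neither of them an interferon gene of the lists. CXCL10 had a log2 difference of -1.11 with a pseudocount of 0.1 and of -0.24 with 1, against -2.94, and of -1.84 with voom, where its nominal p-value was 0.0329. Of 36 correlations, 30 were positive and 1 had an adjusted p-value below 0.05 with or without centring.

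Replicate numbers run from 1 to 6 in both groups, stand for different animals and are those of the sample descriptions; the sample titles number control replicate 6 and every treated animal otherwise. Deviations of same-numbered animals from their group means had correlations from -0.0017 to 0.187, over 0.1 in 2 of 6 pairs, with a mean of 0.0821 beside -0.0162 for other pairs of numbers, and 6 of 12 animals correlated best with their own number. Whether the number stands for anything the animals shared was not tested. With the replicate number as a block, 519 genes had a nominal p-value below 0.05, none an adjusted one, and the nominal p-value was 0.0078 for IFI44L and 0.0228 for TRIM14; the block changed no call among the 9 genes.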
